A study of Mus musculus with 23 samples.

Results

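TRAV6 is a family of variable (V) segments of the T cell receptor (TCR) alpha chain in the mouse. Its members were taken as every alpha-chain (TRA) entry whose V name has 6 as its first number, with all copies and all joint names included. This gave 3094 of 29047 TRA clonotypes (10.7%), a clonotype being a combination of V name, joining (TRAJ) segment and CDR3 amino acid sequence. TCR transcripts had been sequenced from RNA of a syngeneic mouse melanoma model, made with 1 line, NIL, which carries Nras Q61R and was exposed to ultraviolet light to add mutations. There were 23 libraries in 8 groups: trametinib with BGB-283 (combination), trametinib alone, BGB-283 alone and no treatment (control), each at D11 and at D4. Each group had 3 libraries, except control D11, which had 2. All groups share the Nras Q61R line. Trametinib inhibits the kinase MEK, and BGB-283 inhibits RAF kinases. The start of the day count is not labelled, nor is it said that libraries came from separate animals, so every p-value measures the spread between these libraries.

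An alpha chain is made when 1 TRAV segment is joined to 1 TRAJ segment in a developing T cell, and a later join on the same chromosome can replace it with a TRAV further upstream and a TRAJ further downstream. Bases lost and added at the junction make the CDR3, the most variable loop of the chain, which contacts the peptide held by an MHC molecule. The first CDR3 residues come from the V segment and the last from the J segment. Cells that descend from 1 T cell share its CDR3, so a clonotype with a large share of the counts can mark an expanded clone. The mouse TRAV cluster holds duplicated stretches, and the letters D and N in a segment's name mark such copies. The copy TRAV6-7/DV9 can also be joined into a delta chain.

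The deepest library, combination D4 replicate 2, had 524431 TRA counts. The shallowest were control D11 replicate 1 with 37504 and control D4 replicate 1 with 45796. The values look like reads summed over molecular identifiers, since TRAV6 values of 20 occurred 158 times, against 29 times for 19 and 23 times for 21, and none was below 3. Reads of 1 molecule would not be independent, so binomial intervals of shares would be too narrow even for counting error. The spread between libraries is given in their place. In bulk RNA, fewer cells of a clone and less TCR RNA per cell cannot be told apart. No transcripts other than those of the TCR were measured, so the labelled tissue could not be checked against its markers. No 2 libraries were identical, and the highest share of a library's TRA clonotypes that were also listed in 1 other library was 7.78%.

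All 15 copies that the table names were found among the 15 TRAV6 genes of the mouse reference annotation GRCm38.p6, on chromosome 14. In the reference they lie along the locus in the order TRAV6-1, TRAV6-2, the D copies, the N copies and then TRAV6-3 to TRAV6-7/DV9. The table lists them under 18 names, some of them joint names of several copies. Of these names, 7 stand for 1 copy, 4 for 2 copies and 7 for 3 to 10 copies. The last 7 hold 126 clonotypes and 0.345% of TRAV6 counts. The same CDR3 and TRAJ stood under more than 1 TRAV6 name of the same library in 61 of 3254 cases (1.87%), and the smaller names of those held 0.381% of TRAV6 counts. It stood under another TRAV family of the same library in 99 cases (3.04%).

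Shares were uneven among the names. TRAV6D-5V6N-5, a joint name of a D copy and an N copy, held 38.1% of TRAV6 counts and 1003 clonotypes. TRAV6N-7 held 19.9% and 631 clonotypes, TRAV6N-6 16.7% and 418, and TRAV6-6V6D-6 16.5% and 472. These 4 names made up 91.2% of TRAV6 counts and 81.6% of its clonotypes, and all 4 were listed in all 23 libraries. TRAV6-1, the fifth name by mean share, had 3.87% of TRAV6 counts and 150 clonotypes and was listed in 22 libraries. TRAV6-4 (97 clonotypes), TRAV6-3V6D-3 (96), TRAV6-2 (51) and TRAV6D-4 (46) were listed in 16 to 19 libraries. TRAV6-7/DV9 on its own had 1 clonotype with 7 counts.

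Several CDR3 starts were more frequent in TRAV6 than in the other TRA chains, and the leading start was not the same in all its names. CALG opened 1017 TRAV6 clonotypes (32.9%), against 0.620% of the other TRA clonotypes. CALS opened 26.8% of TRAV6 and 7.50% of the others, and CVLG 9.18% of TRAV6 and 0.0347% of the others. CALG was the start of 82.2% of TRAV6-6V6D-6 clonotypes and 48.3% of those of TRAV6N-7. CALS led in TRAV6N-6 (55.5%) and TRAV6D-5V6N-5 (41.8%). TRAV6-1 and TRAV6-2, the copies furthest upstream, opened with CVLG in 72.0% and 76.5% of clonotypes. CALV led in TRAV6-4 (67.0%) and CAMR in TRAV6-3V6D-3 (41.7%). CAMR was rarer in TRAV6 (1.29%) than in the other TRA clonotypes (3.71%). These starts follow the V assignment, since the V segment encodes them, and no test was made.

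The CDR3 sequences of the largest TRAV6 clonotypes are shown first because they carry much of the family's share in their libraries. The 3 below each held the top rank among the TRA clonotypes of its library and have at most 14 residues.
TRAV6D-5V6N-5 with TRAJ39, combination D11 replicate 3: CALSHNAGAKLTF
TRAV6D-5V6N-5 with TRAJ6, BGB-283 D11 replicate 1: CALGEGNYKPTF
TRAV6-6V6D-6 with TRAJ48, combination D11 replicate 2: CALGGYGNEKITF

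TRAV6 took a larger share of TRA counts at D11 than at D4. At D11 the family held 14.9, 18.95 and 44.5% of TRA counts in combination libraries, 7.37, 8.32 and 9.24% in trametinib libraries, 31.8, 6.73 and 11.9% in BGB-283 libraries, and 11.4 and 20.8% in control libraries. At D4 it held 8.84, 5.58 and 5.80% in combination libraries, 15.5, 3.35 and 5.79% in trametinib libraries, 5.56, 3.47 and 8.75% in BGB-283 libraries, and 5.94, 11.2 and 8.01% in control libraries. The highest 4 values were all at D11 (combination replicates 3 and 2, BGB-283 replicate 1 and control replicate 2), and the other 7 D11 libraries overlapped the D4 range. The means were 16.9% ± 11.8 at D11 (SD, n = 11) and 7.32% ± 3.45 at D4 (SD, n = 12). Within treatments the log2 odds of the share were higher at D11 by 1.26 on average (2.39-fold odds), and an exact permutation test within treatments gave p = 0.00236, adjusted p = 0.0142 over the 6 contrasts of this measure. The difference by treatment was 2.18 in combination, 0.30 in trametinib, 1.49 in BGB-283 and 1.05 in control libraries. Leaving out any 1 library gave values from 1.07 to 1.42. In edgeR's quasi-likelihood test over all TRAV families, TRAV6 at D11 had a log2 fold of 1.10 ± 0.34 (SE) over D4, adjusted p = 0.0196. It was 1 of 2 families called among 21 (9.52%), the other being TRAV1.

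**Figure D1:**
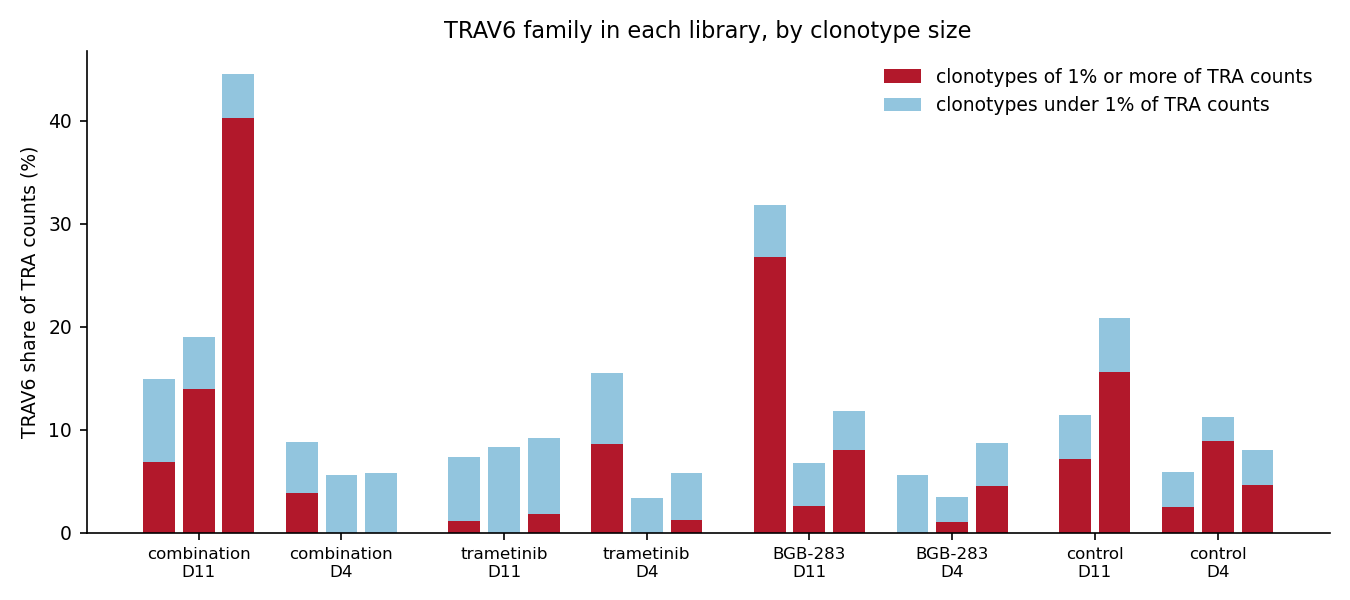
Share of TRA counts held by the TRAV6 family in each of the 23 libraries (y axis, percent), 1 bar per library in replicate order within each group. Red is the part in clonotypes of 1% or more of TRA counts, and blue is the rest. The tallest bars are combination D11 replicate 3 (44.5%) and BGB-283 D11 replicate 1 (31.8%), and in both most of the bar is red.

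Much of the D11 share lay in large clonotypes, here those of 1% or more of a library's TRA counts. Large TRAV6 clonotypes held 11.3% ± 12.4 of TRA counts at D11 and 2.94% ± 3.24 at D4 (SD, n = 11 and 12), and the smaller ones 5.63% ± 1.62 at D11 and 4.38% ± 1.45 at D4. With the largest TRAV6 clonotype of each library left out, the family held 8.94% ± 4.87 at D11 and 4.65% ± 1.73 at D4. That difference was 0.95 in log2 odds (adjusted p = 0.00525 by the exact permutation test), so the higher D11 share did not rest on 1 clonotype per library. At least 1 large TRAV6 clonotype was listed in 10 of 11 D11 libraries and in 8 of 12 D4 libraries.

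Between treatments the TRAV6 share of counts passed the test in 0 of 5 contrasts. The means were 16.4% ± 14.7 in combination, 8.27% ± 4.13 in trametinib, 11.4% ± 10.4 in BGB-283 (SD, n = 6 each) and 11.5% ± 5.69 in control libraries (SD, n = 5). Within days, the log2 odds against control differed by 0.24 in combination (adjusted p = 0.755, exact permutation test), -0.65 in trametinib (adjusted p = 0.370) and -0.37 in BGB-283 libraries (adjusted p = 0.648). Combination libraries differed from trametinib libraries by 0.89 (adjusted p = 0.370) and from BGB-283 libraries by 0.61 (adjusted p = 0.405), again by the exact permutation test. The smallest raw p is 0.005 in these contrasts, and 0.1 for 3 against 3 within 1 day. At D11 alone the combination libraries were higher than the trametinib libraries without overlap, 14.9 to 44.5% against 7.37 to 9.24%, and at D4 their ranges overlapped. Other TRAV families that separate these groups were not counted, so this is not read as particular to TRAV6. Whether a treatment difference itself changed between days was tested for the same 5 contrasts, and 0 passed, with raw p of 0.125 to 0.705 by exact permutation.

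The number of TRAV6 clonotypes passed the test in all 5 treatment contrasts and did not pass it between days. It was 210, 397 and 125 at D11 and 366, 431 and 331 at D4 in combination libraries. In trametinib libraries it was 177, 68 and 152 at D11 and 81, 98 and 126 at D4, and in BGB-283 libraries 63, 97 and 104 at D11 and 69, 83 and 101 at D4. Control libraries had 26 and 88 at D11 and 21, 40 and 63 at D4. All 6 combination libraries lay above the highest control library (88) and above the highest BGB-283 library (104), and 5 of 6 above the highest trametinib library (177). Combination libraries averaged 310 ± 118 (SD, n = 6) and control libraries 47.6 ± 27.8 (SD, n = 5), 6.74-fold apart within days (log2 2.75, adjusted p = 0.0150, exact permutation). Trametinib libraries averaged 117 ± 42.3 (2.61-fold over control, adjusted p = 0.0360) and BGB-283 libraries 86.2 ± 17.3 (2.00-fold over control, adjusted p = 0.0360), by the same exact permutation test. Combination exceeded trametinib 2.58-fold (adjusted p = 0.0360) and BGB-283 3.38-fold (adjusted p = 0.0150) in the exact permutation test. D11 against D4 gave log2 -0.02 (adjusted p = 0.936, exact permutation). The number of all TRA clonotypes moved with it, averaging 2815 ± 1316 in combination, 1307 ± 528 in trametinib, 957 ± 249 in BGB-283 and 503 ± 236 in control libraries (SD). In all 6 combination, 4 of 6 trametinib and 4 of 6 BGB-283 libraries it lay above the highest control library (815).

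Depth moved with these numbers, as TRA counts averaged 348615 in combination, 169393 in trametinib, 222261 in BGB-283 and 115066 in control libraries. After thinning to 37504 TRA counts each, the means were 238 ± 75.0, 111 ± 38.7 and 78.6 ± 13.6 clonotypes in combination, trametinib and BGB-283 libraries and 45.3 ± 26.0 in control libraries, and the 5 calls held. An estimate of molecules, each count divided by 20 and rounded up, gave a stricter thinning, to 2013 per library. Combination libraries then averaged 71.2 ± 16.4, trametinib 59.9 ± 15.5, BGB-283 40.8 ± 7.99 and control 29.9 ± 12.9 clonotypes. There the BGB-283 difference from control (log2 0.44, adjusted p = 0.126, exact permutation) and the combination difference from trametinib (log2 0.26, adjusted p = 0.225, exact permutation) no longer passed. Without both shallowest control libraries, combination stayed at the threshold (log2 2.10, adjusted p = 0.05, exact permutation), and trametinib (log2 0.73) and BGB-283 (log2 0.35) no longer passed against control. With 1 library left out at a time, the combination difference from control kept its call in 11 of 11 repeats (log2 2.31 to 3.19). Trametinib lost its call in 4 of 11, at log2 0.94 without control D11 replicate 1 and 1.17 to 1.31 in the others. BGB-283 lost its call in 7 of 11, at log2 0.56 without control D11 replicate 1, 0.79 without control D4 replicate 1 and 0.93 to 1.07 in the others.

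**Figure D2:**
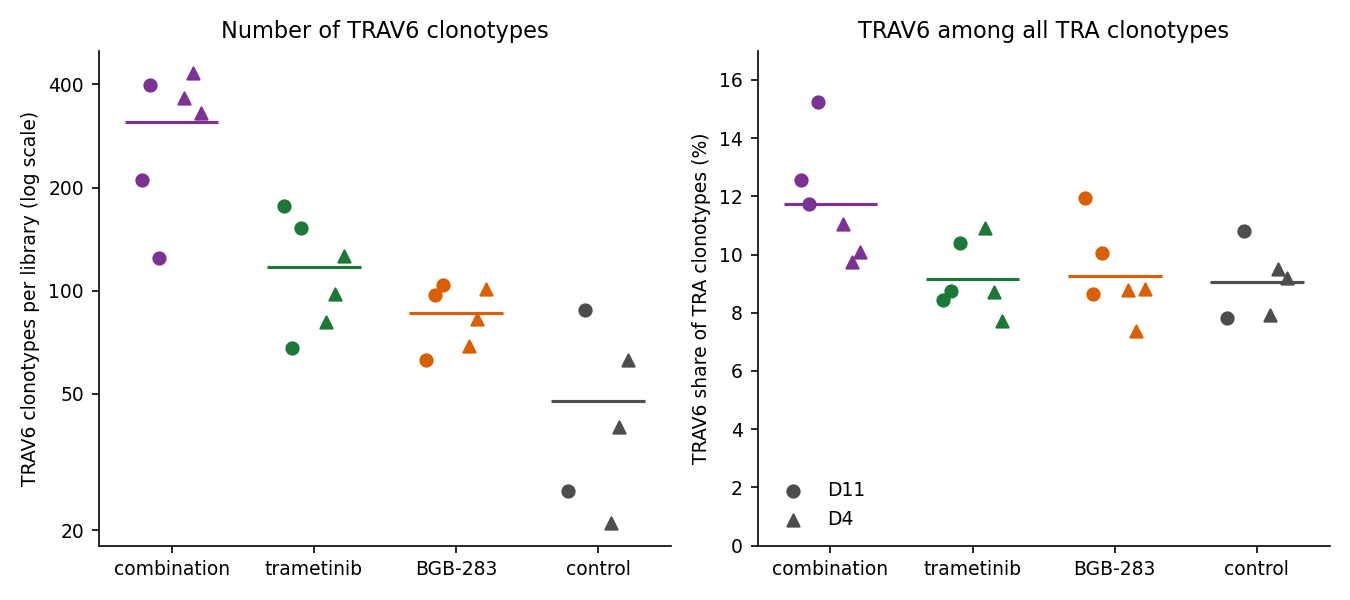
Number of TRAV6 clonotypes per library on a log scale (left) and TRAV6 share of all TRA clonotypes in percent (right), by treatment. Circles are D11 libraries, triangles D4 libraries, and lines are treatment means (310, 117, 86.2 and 47.6 clonotypes in combination, trametinib, BGB-283 and control). All combination libraries lie above all control libraries on the left, and the groups overlap on the right.

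TRAV6 made up a larger part of the TRA clonotypes in combination libraries than under each other treatment. Here each clonotype counts once, whatever its size. The share was 12.6, 11.7 and 15.2% at D11 and 11.03, 9.74 and 10.1% at D4 in combination libraries. It was 8.42, 8.75 and 10.4% at D11 and 10.9, 8.71 and 7.71% at D4 in trametinib libraries. In BGB-283 libraries it was 11.9, 8.63 and 10.1% at D11 and 8.77, 7.37 and 8.83% at D4. Control libraries had 7.83 and 10.8% at D11 and 7.92, 9.50 and 9.21% at D4. Only 4 of 6 combination libraries lay above the highest control value, so the groups overlapped. The means were 11.7% ± 2.01 in combination, 9.15% ± 1.23 in trametinib, 9.27% ± 1.56 in BGB-283 (SD, n = 6 each) and 9.05% ± 1.23 in control libraries (SD, n = 5).

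Combination differed by 0.39 in log2 odds from control, by 0.39 from trametinib and by 0.38 from BGB-283, each with adjusted p = 0.0300 in the exact permutation test. Trametinib differed from control by -0.0011 (adjusted p = 1) and BGB-283 by 0.02 (adjusted p = 1), by exact permutation. D11 against D4 gave 0.20 (adjusted p = 0.0627, exact permutation). The combination libraries kept these calls after both kinds of thinning, with means of 12.0% ± 1.61 at equal counts and 11.9% ± 1.42 at equal molecules. They depended on single libraries: without control D11 replicate 1 the difference from control was 0.27 (adjusted p = 0.131), without combination D11 replicate 3 it was 0.33 (adjusted p = 0.0700), and without combination D4 replicate 1 it was 0.36 (adjusted p = 0.06), by exact permutation. Against trametinib the call was lost in 7 of 12 such repeats, at differences of 0.33 to 0.40, and against BGB-283 without combination D11 replicate 3 (0.31) and combination D4 replicate 1 (0.35). When clonotypes per TRAV family were tested with edgeR instead, TRAV6 was called against trametinib (log2 fold 0.35, adjusted p = 0.0467, 1 of 15 families called, 6.67%) and against BGB-283 (0.34, adjusted p = 0.0388, 13.3% called). In that edgeR test it was not called against control (0.30, adjusted p = 0.134, 6.67% of families called).

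Of the single names, 14 of 18 passed edgeR's filter on low counts, together with 104 other TRAV names. In edgeR's quasi-likelihood test, 0 TRAV6 names were called in each of the 6 contrasts. The share called among all 118 names was 0% for combination against control, 0% for trametinib against control, 1.69% for BGB-283 against control, 0% for combination against trametinib, 0.847% for combination against BGB-283 and 0% for D11 against D4. At an unadjusted p under 0.05 edgeR had 2, 1, 2, 0, 1 and 1 TRAV6 names in the same order, among 16, 15, 17, 6, 9 and 12 of all 118 names. DESeq2 called 2, 1, 2, 0, 0 and 2 TRAV6 names, where it called 9.35, 9.09, 8.18, 5.45, 2.73 and 11.9% of all names tested. DESeq2 called TRAV6N-6 lower than control in combination and BGB-283 libraries, and TRAV6D-5V6N-5 higher at D11. It called TRAV6-2 lower at D11 and higher than control under each treatment, at fitted log2 folds of 9.28 to 9.49. The mean shares of TRAV6-2 ran the other way, 0.157% in control and 0.0482, 0.0434 and 0.0413% in combination, trametinib and BGB-283 libraries. TRAV6-2 was listed at 0 in both control D11 libraries, so its fitted folds over control are not read as a rise. Its D11 call is not read as a fall either. In control libraries its mean share was 0.261% at D4 and 0 at D11. In the treated groups it was higher at D11 than at D4. The means were 0.0599 against 0.0365% in combination, 0.0580 against 0.0287% in trametinib and 0.0488 against 0.0337% in BGB-283 libraries. Among the 14 names the median log2 fold in edgeR was 1.07, 1.05, 0.71, -0.52, 0.37 and -0.61 in the same order of contrasts. Over all 118 names it was 0.21, 0.59, -0.05, -0.64, 0.16 and 0.20. Rare names weigh as much as leading ones in such a median, so it need not follow the family's share of counts. The biological coefficient of variation was 1.32, estimated as 1 value for all names.

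TRAV6D-5V6N-5 was the name with the largest shares. At D11 it held 6.60, 1.34 and 29.3% of TRA counts in combination libraries, 3.95, 3.11 and 2.84% in trametinib libraries, 28.1, 2.38 and 7.46% in BGB-283 libraries, and 2.16 and 1.90% in control libraries. At D4 it held 1.42, 1.32 and 2.68% in combination libraries, 3.38, 1.09 and 1.87% in trametinib libraries, 2.28, 0.539 and 2.16% in BGB-283 libraries, and 1.18, 0.449 and 5.004% in control libraries. Both high values, 29.3 and 28.1%, were at D11, and 7 of the other 9 D11 values fell within the D4 range. Its D11 against D4 difference was log2 1.56 ± 0.52 (SE), adjusted p = 0.213 in edgeR and 0.0280 in DESeq2.

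TRAV6N-6 was above 2% of TRA counts in 4 of 5 control libraries and in 2 of 18 treated ones. At D11 it held 0.573, 0.323 and 1.30% of TRA counts in combination libraries, 0.608, 0.859 and 1.01% in trametinib libraries, 0.597, 0.662 and 0.396% in BGB-283 libraries, and 8.30 and 13.9% in control libraries. At D4 it held 4.66, 0.431 and 0.410% in combination libraries, 9.64, 0.449 and 0.805% in trametinib libraries, 0.565, 0.883 and 1.27% in BGB-283 libraries, and 2.73, 9.39 and 0.0709% in control libraries. At D11 every treated library lay below both control libraries, and at D4 control D4 replicate 3 had the lowest value of all. Other TRAV names that separate the D11 libraries in this way were not counted, so this is not read as particular to TRAV6N-6. Against control the log2 fold was -2.53 ± 0.93 in combination (adjusted p = 0.183), -1.95 ± 0.91 in trametinib (adjusted p = 0.353) and -3.25 ± 0.95 in BGB-283 libraries (adjusted p = 0.0842), all in edgeR with SE. Leaving out 1 library at a time gave -3.60 to -1.76 in combination and -3.54 to -2.48 in BGB-283 libraries. Of the 11 repeats in each contrast, only the 1 without control D4 replicate 3, the library with the lowest share, passed the threshold. There the edgeR values were -2.82 (adjusted p = 0.0424) in combination and -3.54 (adjusted p = 0.0147) in BGB-283 libraries. How many of all TRAV names were called in that repeat was not counted. Large clonotypes of this name made up most of its share in all 4 control libraries above 2%. They also did so in both treated libraries above 2%, combination D4 replicate 1 and trametinib D4 replicate 1.

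TRAV6N-7 had its 3 highest values in combination D11 libraries. At D11 it held 5.94, 5.28 and 12.6% of TRA counts in combination libraries, 0.852, 0.916 and 3.10% in trametinib libraries, 2.78, 0.470 and 1.25% in BGB-283 libraries, and 0.344 and 1.62% in control libraries. At D4 it held 1.70, 0.788 and 0.902% in combination libraries, 0.799, 0.628 and 1.05% in trametinib libraries, 1.25, 0.267 and 4.06% in BGB-283 libraries, and 0.740, 0.666 and 0.779% in control libraries. Of the 6 combination libraries, 4 lay above the highest control library (1.62%), and the rest lay within the control range. How many other TRAV names lay apart in this way was not counted. In each combination D11 library 1 clonotype listed in no other library made up most of this share. These clonotypes held 4.91, 3.71 and 11.8% of TRA counts in replicates 1, 2 and 3. In edgeR the log2 fold was 1.83 ± 0.75 against control (adjusted p = 0.252), 1.37 ± 0.68 against trametinib (adjusted p = 0.574) and 0.84 ± 0.68 against BGB-283 (adjusted p = 0.733), with SE. With each clonotype counted once, edgeR gave 0.80 against trametinib (adjusted p = 0.0463). The share of all TRAV names called under that setting was not counted, so this call is not read as particular to TRAV6N-7.

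TRAV6-6V6D-6 was high in 1 library. At D11 it held 1.10, 10.8 and 0.369% of TRA counts in combination libraries, 1.11, 1.26 and 0.699% in trametinib libraries, 0.127, 3.00 and 2.55% in BGB-283 libraries, and 0.160 and 1.95% in control libraries. At D4 it held 0.204, 1.75 and 0.598% in combination libraries, 0.770, 0.417 and 0.454% in trametinib libraries, 0.531, 1.27 and 0.266% in BGB-283 libraries, and 0.282, 0.287 and 1.47% in control libraries. The groups overlapped throughout. Its smallest p was for D11 against D4 (log2 fold 1.32 ± 0.64 SE, adjusted p = 0.394 in edgeR). Against trametinib the combination libraries had 1.32 ± 0.89 (SE, adjusted p = 0.603 in edgeR).

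TRAV6-1 stayed at or below 1.19% in every library. At D11 it held 0.286, 0.1003 and 0.822% of TRA counts in combination libraries, 0.376, 1.19 and 0.570% in trametinib libraries, 0.0336, 0.0214 and 0.0298% in BGB-283 libraries, and 1.14% in 1 control library, while control D11 replicate 1 was listed at 0. At D4 it held 0.596, 1.03 and 0.411% in combination libraries, 0.459, 0.325 and 0.115% in trametinib libraries, 0.620, 0.364 and 0.179% in BGB-283 libraries, and 0.463, 0.274 and 0.0700% in control libraries. The 3 BGB-283 D11 libraries were the lowest above 0, and other TRAV names with such an order were not counted. BGB-283 against control gave log2 -1.91 ± 1.03 (SE, adjusted p = 0.379), and combination against BGB-283 2.32 ± 1.01 (SE, adjusted p = 0.517), both in edgeR. The first turned to 4.75 without control D11 replicate 2, the 1 control D11 library with counts.

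Among the rarer names, TRAV6-3V6D-3 averaged 0.188% in trametinib libraries, where all 6 listed it, and 0.0494% in control libraries, where 2 of 5 did (adjusted p = 0.508 in edgeR). TRAV6-4 was listed in 6 of 6 combination libraries, at 0.244% ± 0.351, and in 3 of 6 BGB-283 libraries, at 0.0326% ± 0.0615 (SD, adjusted p = 0.646 in edgeR). The name of 3 copies, TRAV6-6V6-7/DV9V6D-6, averaged 0.0485% at D11 and 0.00655% at D4 (adjusted p = 0.394 in edgeR), and 0.00730% in combination and 0.0627% in trametinib libraries (adjusted p = 0.603 in edgeR). A name of 7 copies, TRAV6-5V6-6V6-7/DV9V6D-5V6D-6V6D-7V6N-5, was listed at 0 in all 5 control libraries and in 3 of 6 combination, 3 of 6 trametinib and 2 of 6 BGB-283 libraries. Its highest share was 0.0357%, and no fold is given against libraries at 0. For names listed at 0 in some libraries, a fitted fold also depends on the fit's prior count.

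**Figure D3:**
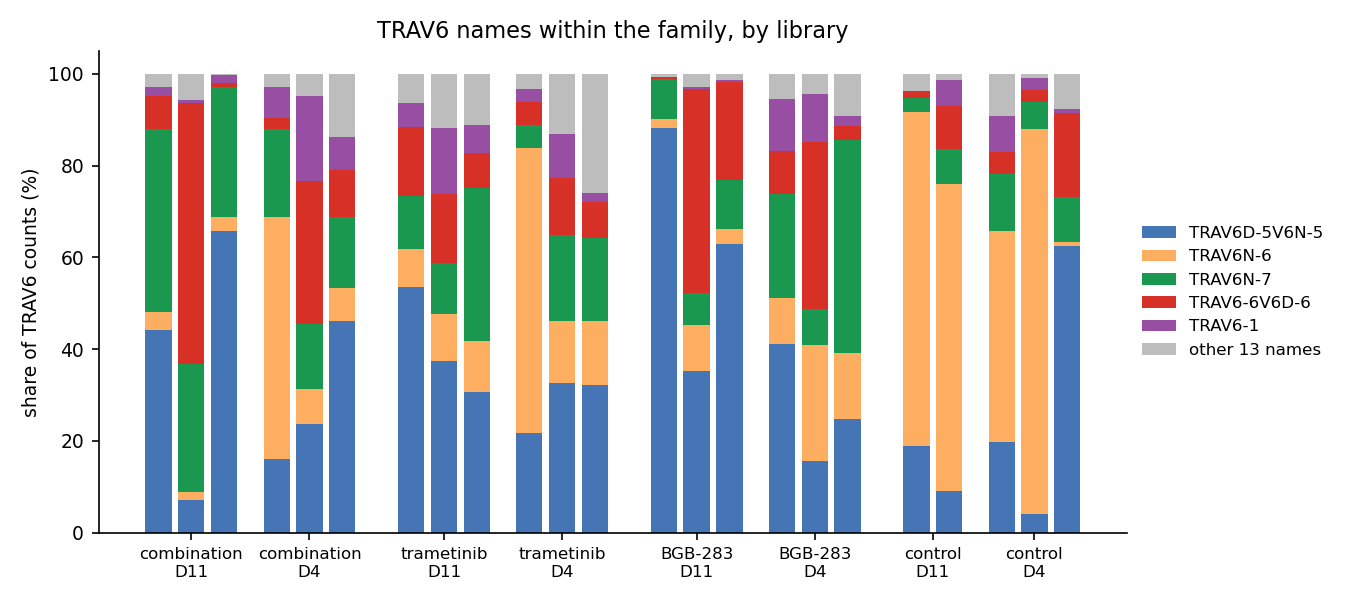
Make-up of the TRAV6 family in each library, as the percent of TRAV6 counts (y axis) under the 5 leading names and the other 13 names together, 1 bar per library. Orange, TRAV6N-6, fills most of both control D11 bars and of control D4 replicate 2, trametinib D4 replicate 1 and combination D4 replicate 1. Blue, TRAV6D-5V6N-5, fills most of the BGB-283 D11 replicate 1 and combination D11 replicate 3 bars. It also fills most of BGB-283 D11 replicate 3, control D4 replicate 3 and trametinib D11 replicate 1.

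There were 29 large TRAV6 clonotypes among 337 large TRA clonotypes (8.61%), beside the 10.7% that TRAV6 made up of all TRA clonotypes. TRAV6N-6 had 8 of them, TRAV6D-5V6N-5 7, TRAV6N-7 and TRAV6-6V6D-6 6 each, and TRAV6-1 and TRAV6-4 1 each. All 29 differed in sequence, and each was large in 1 library only. Of the 29, 4 held the first rank in their library. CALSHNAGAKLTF held 28.4% of TRA counts in combination D11 replicate 3 and was listed in no other library. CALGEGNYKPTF held 25.4% in BGB-283 D11 replicate 1 and 0.0775% (116 counts) in BGB-283 D11 replicate 2. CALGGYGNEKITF held 10.2% in combination D11 replicate 2. The remaining one, a TRAV6N-6 with TRAJ2 clonotype of 15 residues, held 13.03% in control D11 replicate 2.

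The next largest were spread over treatments and days. In combination D11 replicate 3 a TRAV6N-7 with TRAJ27 clonotype of 15 residues held 11.8%, second in that library. In control D4 replicate 2, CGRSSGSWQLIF (TRAV6N-6, TRAJ22) held 8.95%, and in trametinib D4 replicate 1, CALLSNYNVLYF (TRAV6N-6, TRAJ21) held 7.30%. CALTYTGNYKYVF (TRAV6D-5V6N-5, TRAJ40) held 6.37% in BGB-283 D11 replicate 3. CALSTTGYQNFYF (TRAV6N-6, TRAJ49) held 5.47% in control D11 replicate 1, and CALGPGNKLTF (TRAV6N-7, TRAJ17) 4.91% in combination D11 replicate 1. The other 19 held between 1.01 and 3.87% of the TRA counts of their library.

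Most large TRAV6 clonotypes were private to their library, but no more often than TRAV6 clonotypes of any size, of which 94.7% were listed in 1 library. Of the 29, 7 were listed in another library, and the highest share there was 0.166%. Large clonotypes of other TRAV families were not compared. Both large TRAV6 clonotypes of BGB-283 D11 replicate 1 were listed in BGB-283 D11 replicate 2, the second, a TRAV6N-7 with TRAJ18 clonotype of 15 residues, at 1.39% and 0.0575% (86 counts). Whether sequence passed between these libraries was not tested.

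Across all sizes, 2930 of 3094 TRAV6 clonotypes (94.7%) were listed in 1 library, against 91.1% of the other TRA clonotypes. The most shared were in 6 libraries, while some other TRA clonotypes were in 20. Sharing is counted by V name, so a sequence split over copy names is counted as less shared. Of 2820 TRAV6 combinations of CDR3 and TRAJ, 228 (8.09%) stood under more than 1 TRAV6 name over all libraries. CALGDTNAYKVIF with TRAJ30, below, is an example. Sharing without the V name was not compared with that of other families. The 6 TRAV6 clonotypes in 5 or more libraries are shown because 4 of them end in the same 9 residues.
TRAV6-6V6D-6 with TRAJ30, 6 libraries: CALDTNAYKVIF
TRAV6-6V6D-6 with TRAJ30, 6 libraries: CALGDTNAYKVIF
TRAV6N-7 with TRAJ30, 5 libraries: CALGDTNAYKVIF
TRAV6D-5V6N-5 with TRAJ30, 5 libraries: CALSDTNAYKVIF
TRAV6-6V6D-6 with TRAJ24, 5 libraries: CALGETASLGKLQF
TRAV6D-5V6N-5 with TRAJ18, 5 libraries: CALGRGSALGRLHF

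Each of the 6 was listed in 2 to 4 of the 6 combination libraries, and 1 of the 6 in a control library. Except for the TRAJ24 clonotype, which reached 1.01% in BGB-283 D4 replicate 2, none was above 0.139% of TRA counts. The combination libraries also listed the most TRAV6 clonotypes. Treatment was not compared over these 6.

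TRAV6 joined some TRAJ segments more, and some less, than the other TRAV families did in the same libraries. The test set the share of each of 41 TRAJ segments among TRAV6 clonotypes against its share among other TRA clonotypes over the 23 libraries, with 100000 sign flips. With TRAV6, 2 segments were higher (4.88% of those tested) and 5 were lower (12.2%). The share given for each segment is the mean of its percents in the 23 libraries, not a share of pooled clonotypes. TRAJ30 was used by 6.93% of TRAV6 clonotypes and 4.83% of the others, higher in 20 of 23 libraries (adjusted p = 0.0280, permutation by sign flips). TRAJ32 was used by 4.16% and 2.02%, higher in 17 of 23 (adjusted p = 0.0456, sign-flip permutation). TRAJ30 is also the segment of 4 of the 6 most shared TRAV6 clonotypes.

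The lower segments were TRAJ37, TRAJ5, TRAJ15, TRAJ50 and TRAJ45. TRAJ37 was used by 2.27% of TRAV6 clonotypes and 4.46% of the others, lower in 18 of 23 libraries (adjusted p = 0.0139, sign-flip permutation). TRAJ50 was used by 0.473% and 1.57%, lower in 19 of 23 (adjusted p = 0.00328, sign-flip permutation). TRAJ15 had 2.19% and 3.74% (adjusted p = 0.0280), TRAJ5 1.00% and 2.60% (adjusted p = 0.0456), and TRAJ45 0.910% and 1.51% (adjusted p = 0.0412), all by sign-flip permutation. TRAJ37 and TRAJ50 kept their calls whichever library was left out, and TRAJ32, TRAJ30, TRAJ5, TRAJ15 and TRAJ45 lost theirs in 17, 5, 20, 2 and 12 of 23 such repeats. The TRAJ32 difference was 1.41 percentage points without control D4 replicate 1 and 1.15 without both shallowest control libraries. TRAJ numbers fall from 5' to 3' along the locus, and the called segments lay along its whole length. The mean TRAJ number of TRAV6 clonotypes was 0.69 below that of the others (adjusted p = 0.384, permutation by sign flips), lower in 16 of 23 libraries. Without control D11 replicate 1 it was 1.09 below (adjusted p = 0.0274, sign-flip permutation).

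**Figure D4:**
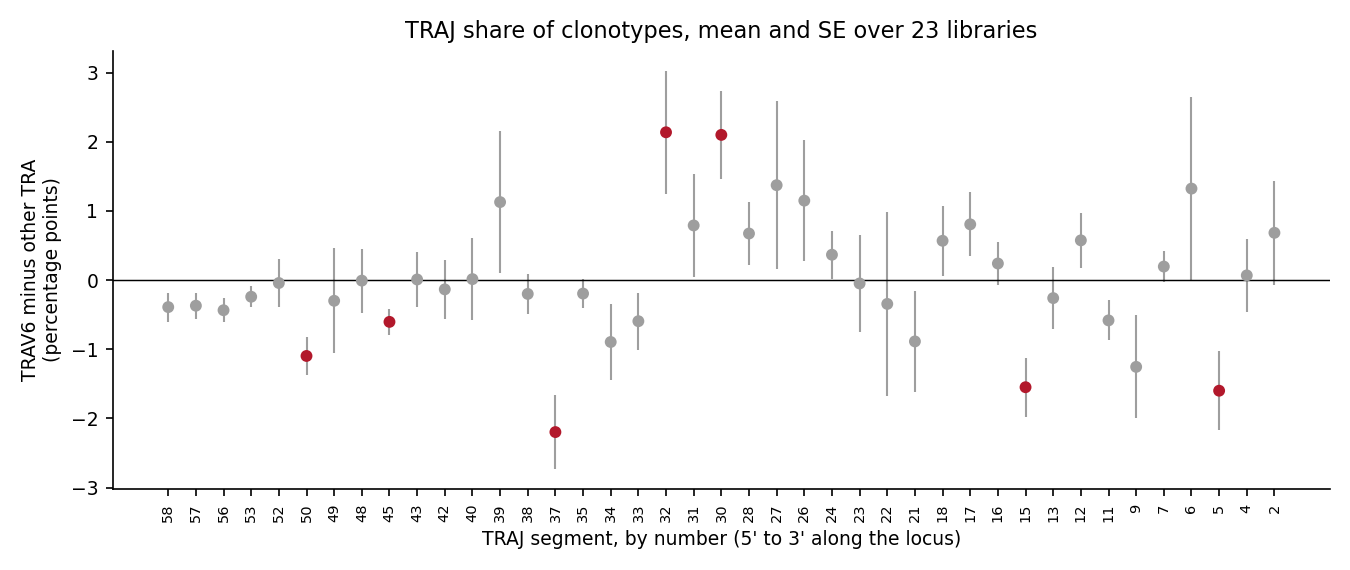
Difference in the share of each TRAJ segment between TRAV6 and other TRA clonotypes (y axis, percentage points), with segments in locus order from TRAJ58 to TRAJ2 on the x axis. Points are means over 23 libraries, bars are standard errors, and red marks the 7 segments past the threshold. TRAJ32 and TRAJ30 are the red points above 0, and TRAJ37 is the lowest point.

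CDR3 loops of TRAV6 clonotypes were slightly longer than those of the other TRA clonotypes of the same library. The mean difference was 0.270 residues (SD 0.283, n = 23 libraries), with TRAV6 longer in 20 of 23 (adjusted p = 0.00051, permutation by sign flips over 3 measures). By treatment it was 0.263 ± 0.0430 in combination, 0.313 ± 0.201 in trametinib, 0.118 ± 0.263 in BGB-283 and 0.408 ± 0.491 in control libraries (SD). Of all TRAV6 clonotypes, 19.2% had 15 residues and 8.63% had 16, against 14.5% and 5.86% of the others. At 12 and 13 residues TRAV6 had 11.99% and 22.98%, against 14.9% and 26.5% of the others. Weighted by counts the difference was 0.0218 residues (adjusted p = 0.946, sign-flip permutation). The clonotypes that held most TRAV6 counts included short loops, such as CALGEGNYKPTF with 12 residues.

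Between groups, the mean CDR3 length of TRAV6 clonotypes passed the test in 0 of 6 contrasts, with adjusted p of 0.495 in each by exact permutation. It averaged 13.8 residues ± 0.0889 in combination, 13.9 ± 0.146 in trametinib, 13.7 ± 0.187 in BGB-283 (SD, n = 6 each) and 14.0 ± 0.451 in control libraries (SD, n = 5). The widest spread was in control libraries, which had the fewest TRAV6 clonotypes per library. At D11 it averaged 13.9 ± 0.255 and at D4 13.8 ± 0.239 residues (SD, n = 11 and 12).

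**Figure D5:**
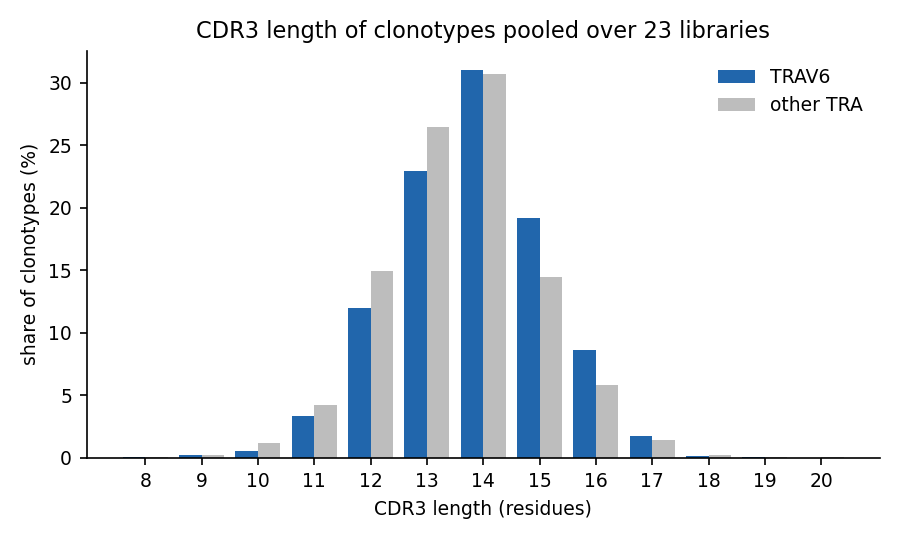
CDR3 length in residues (x axis) of TRAV6 clonotypes (blue) and other TRA clonotypes (grey), as the percent of clonotypes pooled over 23 libraries (y axis). Both peak at 14 residues, and TRAV6 has the larger share at 15 and 16 residues.

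TRAV6 was the 3rd of 21 TRAV families by mean share of counts (11.9% ± 9.66, SD, n = 23) and by mean share of clonotypes (9.83% ± 1.85). TRAV7 and TRAV14 ranked above it on both. The log2 odds of its share of counts minus those of its share of clonotypes averaged 0.01 (adjusted p = 0.946, permutation by sign flips), above 0 in 9 of 23 libraries. It ran from -1.47 to 2.15, so in single libraries the family held far more or far fewer counts than its clonotypes would give at an even size. The families whose share of counts ordered the 23 libraries most like TRAV6 were TRAV18 (Spearman's rho 0.46), TRAV19 (0.46) and TRAV17 (0.21). These are descriptions over libraries that share 1 TRA total per library, and TRAV18 averaged only 0.0286% of counts.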

How the data were processed

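Values are whole-number counts, as deposited, of each combination of chain, V name, J segment and CDR3 amino acid sequence in 23 libraries, with no scaling between them. RNA was extracted with QIAGEN and Ambion kits and libraries were made with a QIAGEN immune repertoire kit, per the labels' protocols. GRCh38, a human build, stands in the submitters' processing notes for these mouse samples. No aligner, clonotype caller or filter is given in the sources used here. Of 64710 entries, 274 with an unresolved residue were left out. The members and lists were chosen with earlier results of these data known.

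For tests of shares, log2 odds were taken after adding 0.5 counts on both sides. Each of 6 contrasts used a two-sided exact permutation of library labels within days (D11 against D4: within treatments), with p-values adjusted by Benjamini-Hochberg over these 6 per measure and called up to 0.05. Measures within libraries used two-sided sign flips with 100000 resamples. TRAV names were tested with edgeR 4.0.16 (R 4.3.3; 8 groups, filterByExpr, TMM off, TRA total as library size), and DESeq2 1.42.0 as an alternative. An adjusted p that DESeq2 left undefined was not counted. The edgeR and TRAJ tests were tested on simulated data. Other steps used Python 3.11.15, NumPy 2.4.6, SciPy 1.17.1 and pandas 2.3.3. Thinning took the mean of 100 seeded draws.

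Values are given in every library for the 5 TRAV6 names with the highest mean share and for names past the threshold, with the 3 smallest unadjusted p per contrast where fewer than 3 passed. TRAJ segments past the threshold, clonotypes of 1% or more, clonotypes in 5 or more libraries and the 3 families most alike by Spearman correlation are also named. The thinning of clonotypes to equal molecules, the thinning of the clonotype share and edgeR on clonotypes per family were added after seeing the data. Same-numbered libraries were not treated as pairs, since in only 3 of 28 group pairs was every same-number correlation over 0.1, with a mean of 0.00223 and a range of -0.235 to 0.261.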

Additional observations from a re-analysis of the deposited data

Results flagged for a closer look

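In 2 of the 16 sets of libraries checked for a library far from the others, 1 value stood apart by Dixon's gap test at the 95% level, and chance does this in about 1 in 20 sets. Among the 6 combination libraries, combination D11 replicate 3 had 44.5% of TRA counts in TRAV6, while the other 5 had 5.58 to 18.95%. Among the 6 BGB-283 libraries, BGB-283 D11 replicate 1 had 31.8%, while the other 5 had 3.47 to 11.9%. In both libraries 1 TRAV6D-5V6N-5 clonotype was the largest of all TRA clonotypes, at 28.4% in combination D11 replicate 3 and 25.4% in BGB-283 D11 replicate 1. With that clonotype left out, TRAV6 held 22.6% in combination D11 replicate 3 and 8.68% in BGB-283 D11 replicate 1, of the remaining TRA counts.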

How the results depend on the processing

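In all, 61 results were recomputed under other settings, giving 1260 values. The higher TRAV6 share of counts at D11 kept its direction and its call under every setting tried. With a replicate block its log2 difference was 1.28 (adjusted p = 0.0122, exact permutation), and the replicate block changed no call of any result. In log2 odds of the share of counts, trametinib against control turned to 0.25 with the largest TRAV6 clonotype of each library left out, and combination against control to -0.14 without both shallowest control libraries.

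For the log2 number of clonotypes, setting counts under 20 to 0 left BGB-283 at 0.90 over control and combination at 0.85 over trametinib, both no longer past the threshold. Thinning to equal counts turned D11 against D4 to 0.0473. At equal estimated molecules, the calls of BGB-283 over control (0.44) and combination over trametinib (0.26) were lost and D11 against D4 turned to 0.34. Without both shallowest control libraries, trametinib (0.73) and BGB-283 (0.35) against control lost theirs, with fewer libraries in the test, combination stayed at the threshold (2.10, adjusted p = 0.05, exact permutation), and D11 against D4 turned to 0.0926.

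For the share of clonotypes, trametinib against control turned to 0.0673 with counts under 20 set to 0, 0.0323 at equal counts and 0.0781 at equal molecules. Without both shallowest control libraries, combination against control was 0.23 and no longer called, BGB-283 against control turned to -0.15, and D11 against D4 (0.24, adjusted p = 0.0300, exact permutation) became called. In edgeR on clonotypes per family, combination against control (0.30) was not called and BGB-283 against control was -0.0365. Weighted by counts, the CDR3 length difference of D11 against D4 turned to -0.0046 residues, the CDR3 length difference within libraries (0.0218) lost its call and the TRAJ number difference turned to 1.38. The TRAJ number difference was -1.28 and called (adjusted p = 0.0028, permutation) without both shallowest control libraries. Counts against clonotypes turned to -0.0827 with counts under 20 set to 0. The TRAJ segments called higher were 1, 0 and 1 with counts under 20 set to 0, weighted by counts and without both shallowest control libraries, and those called lower were 2 in the first of these.

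TRAV6 names called by DESeq2 numbered 2, 1 and 2 for the combination, trametinib and BGB-283 contrasts with control, and 2 for D11 against D4, where edgeR called 0. Without a filter on low counts edgeR called 1 TRAV6 name for BGB-283 against control. When every clonotype counted once it called 1 for combination against trametinib. How many of all TRAV names were called under these 2 settings was not counted, so these calls are not read as particular to TRAV6. With names summed to families, the TRAV6 family was called for D11 against D4, where 2 of 21 families were called (9.52%). The cause of these changes was not tested.

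Leaving out 1 library at a time moved the share of counts from -0.0925 to 0.50 (combination against control), -0.98 to -0.38 (trametinib against control) and 0.56 to 1.22 (combination against trametinib). Without trametinib D4 replicate 1 the last 2 passed the threshold (adjusted p = 0.0300 and 0.0400, exact permutation). The log2 number of clonotypes ran from 2.31 to 3.19, 0.94 to 1.82 and 0.56 to 1.44 in combination, trametinib and BGB-283 libraries against control, and from -0.24 to 0.20 in D11 against D4. Control D11 replicate 1 gave the lowest of the first 3, and trametinib and BGB-283 lost their calls without it. The trametinib call was also lost without control D4 replicate 1 (1.17) and trametinib D11 replicates 1 (1.25) and 3 (1.31). The BGB-283 call was also lost without control D4 replicate 1 (0.79) and without each BGB-283 library except D11 replicate 1 (0.93 to 1.07). The share of clonotypes ran from 0.27 to 0.51, -0.12 to 0.12 and -0.11 to 0.14 against control in the same order, 0.33 to 0.47 for combination against trametinib, 0.31 to 0.44 for combination against BGB-283, and 0.14 to 0.26 for D11 against D4. The TRAJ number difference ran from -1.09 to -0.42 and counts against clonotypes from -0.0845 to 0.0801. TRAJ segments called higher numbered 0 to 2 and lower 2 to 6. TRAV6 names called numbered 0 to 2, 0 to 1 and 0 to 2 in combination, trametinib and BGB-283 libraries against control, above 0 only without control D4 replicate 3. How many of all TRAV names were called in these repeats was not counted. TRAV6-1 in BGB-283 against control ran from -2.40 to 4.75. Group sizes of 2 or 3 and control libraries of 37504 and 45796 TRA counts limit what these data can separate.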
